A study of Mus musculus with 8 samples.

Results

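Leukotrienes and prostaglandins are lipid signals made from arachidonic acid, a fatty acid freed from membrane phospholipids by phospholipases. In the lipoxygenase branch, 5-lipoxygenase and its partner at the nuclear membrane, the 5-lipoxygenase-activating protein, make leukotriene A4, which is turned into leukotriene B4, an attractant of leukocytes, or into the cysteinyl leukotrienes. In the cyclooxygenase branch, prostaglandin H2 is made first and terminal synthases turn it into single products, among them prostaglandin E2 and prostacyclin, a relaxant of vascular smooth muscle that also restrains platelets. The set described here has 10 genes of these branches, Alox5ap, Alox5, Lta4h, Ltc4s, Alox15, Alox12, Ptgs1, Ptgs2, Ptges and Ptgis, out of 30142 genes that had a transcript cluster with a single symbol on the array. They are core enzymes of the pathway, selected on their log2 differences between the same 8 arrays that are described here as well as on their place in it, so the values of the members, and the count of those past the threshold used for all clusters, are given as a description and support nothing. Of the 10 genes, 9 had a row with a single symbol and each had exactly 1, so no choice between rows was needed; Ptgs1 was not analysed here.

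The arrays measured RNA of the ascending aorta of male mice aged 10 weeks on a C57BL/6J background. The 4 Fbn1mgR/mgR mice (mgR611, mgR612, mgR613 and mgR614) were homozygous for mgR, a germline allele that lowers the level of fibrillin-1 and models severe Marfan syndrome, and the 4 wild-type mice (WT675, WT676, WT742 and WT744) came, like them, from crosses of Fbn1mgR/+ parents. Whether each sample was 1 animal is not stated, and p-values cover no more than the sample-to-sample spread, part of which may be technical. Per-sample values below are log2 signals in the array order just given. Signals of different genes come from different probes and are not set against each other. The smooth muscle marker Acta2 was bright in both genotypes, at 19.14 to 19.49 in Fbn1mgR/mgR and 19.49 to 19.57 in wild-type arrays. Over 9 smooth muscle markers the log2 differences, Fbn1mgR/mgR minus wild-type, ran from -1.01 to 0.06, with a median of -0.43. The summed brown fat marker signal (log2 of the sum of linear signals) was 16.56 in mgR614 and 16.78 in WT676. In the other arrays it was 9.81 to 12.71. Of 7 brown fat markers tested with limma, 0 were called higher and 0 lower. As a guide to dim signals, the mean signals of 1083 olfactory receptor genes had a 95th percentile of 4.13. With 4 arrays per genotype, precision is limited by their number.

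Promoter sequence was at hand in the RefSeq table (GRCm38.p6) for 6 of the 9 measured genes, Alox5, Lta4h, Ltc4s, Alox12, Ptges and Ptgs2; Alox5ap, Alox15 and Ptgis had no entry. Each window runs from 250 bases before to 50 bases after the annotated start. Below are those of Alox5, the partner enzyme of Alox5ap, of Ltc4s, the first enzyme of the cysteinyl leukotrienes, and of Ptgs2, the gene that varied most between arrays. Capitals mark GAGGAA or its complement TTCCTC, a core bound by ETS factors such as PU.1 of myeloid cells, and in Ptgs2 also TGACG (here as CGTCA), part of the cyclic AMP response element, and CACGTG, an E-box, which overlap there by 2 letters. The motif to capitalise was picked after the motif counts given next were seen.
Alox5 (chr6:116461129-116461428, minus strand): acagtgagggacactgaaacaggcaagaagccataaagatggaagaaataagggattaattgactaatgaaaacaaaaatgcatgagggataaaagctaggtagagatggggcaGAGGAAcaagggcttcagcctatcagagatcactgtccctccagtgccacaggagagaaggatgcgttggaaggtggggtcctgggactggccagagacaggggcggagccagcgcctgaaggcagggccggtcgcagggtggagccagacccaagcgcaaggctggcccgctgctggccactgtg
Ltc4s (chr11:50238483-50238782, minus strand): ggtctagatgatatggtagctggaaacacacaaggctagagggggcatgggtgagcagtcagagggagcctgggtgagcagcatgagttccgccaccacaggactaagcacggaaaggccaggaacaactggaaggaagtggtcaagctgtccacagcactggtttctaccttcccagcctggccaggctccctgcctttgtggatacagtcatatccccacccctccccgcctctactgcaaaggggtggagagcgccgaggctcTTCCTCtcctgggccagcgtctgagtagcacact
Ptgs2 (chr1:150099781-150100080, plus strand): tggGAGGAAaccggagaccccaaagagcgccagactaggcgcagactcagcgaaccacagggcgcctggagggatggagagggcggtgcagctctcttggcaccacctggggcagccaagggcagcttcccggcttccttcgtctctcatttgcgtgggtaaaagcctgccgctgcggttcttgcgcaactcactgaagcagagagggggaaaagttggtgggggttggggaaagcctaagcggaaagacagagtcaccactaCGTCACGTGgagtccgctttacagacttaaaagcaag

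Searched on both strands, GAGGAA was in all 6 of these promoters and in 28.3% of all 32851 promoter windows in the table. It was 1 of 8 motifs searched. TGACG was in 1 of the 6 against 20.8% of all windows, and CACGTG in 1 of the 6 against 7.15%. The GC box GGGCGG was in 4 of the 6 (35.7% of all), an NF-kappaB-like pattern (GGG, 5 bases of any kind, CC) in 5 (50.8%), TTTCC, which can overlap TTCCTC, in 4 (61.3%), CCAAT in 1 (37.4%) and the TATA box TATAAA in 0 (13.6%). A match in a window is a description of its letters and not of binding.

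The leukotriene branch was led by Alox5ap. Alox5ap encodes the 5-lipoxygenase-activating protein, a small membrane protein that hands arachidonic acid to the enzyme. Its log2 signals were 11.88, 12.57, 12.43 and 12.05 in the Fbn1mgR/mgR arrays, against 10.18, 10.03, 9.91 and 9.82 in the wild-type arrays. Every mutant array lay above every wild-type array, with a gap wider than the whole spread of either genotype. The means were 12.2 ± 0.322 in Fbn1mgR/mgR and 9.98 ± 0.156 in wild-type arrays (log2, SD, n = 4 each), a difference of 2.25 (SE 0.177), or 4.75-fold.

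Alox5, which encodes 5-lipoxygenase itself, had 6.41, 7.01, 6.60 and 5.88 in the Fbn1mgR/mgR arrays, against 5.54, 5.56, 5.58 and 5.64 in the wild-type arrays. The genotypes did not overlap, yet the lowest mutant array, mgR614, was only slightly above the highest wild-type array, while mgR612 stood well above all of them. The difference was 0.89 (SE 0.209), or 1.86-fold. The mutant arrays spread over 1.13 log2 units and the wild-type arrays over 0.10.

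The enzymes that act on leukotriene A4 overlapped between genotypes. Lta4h, whose product leukotriene A4 hydrolase makes leukotriene B4, had 7.11, 7.91, 7.92 and 7.58 in Fbn1mgR/mgR, against 7.76, 7.47, 7.40 and 7.54 in wild-type arrays. The lowest value of all was in mgR611, and the difference was 0.09 (SE 0.194). Without mgR612 or mgR613 the difference was -0.01. Ltc4s, which encodes leukotriene C4 synthase, the first enzyme of the cysteinyl leukotrienes, had 3.92, 4.51, 4.50 and 3.75 in Fbn1mgR/mgR, against 3.88, 3.76, 3.87 and 3.81 in wild-type arrays. Only mgR612 and mgR613 lay above the dim guide of 4.13, and the other 6 arrays lay below it. With its mean over 8 arrays, Ltc4s just missed the filter at 4.01 and was not tested, and its difference of 0.34 (SE 0.171) is that of a dim gene. Alox15, at 4.43, was the dimmest member that passed the filter.

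The same mutant arrays were high in several of these genes. Alox5ap, Alox5 and Ltc4s each had their highest signal in mgR612 and the next highest in mgR613. Both arrays were also the highest in Lta4h, in the other order. In the wild-type arrays Alox5 and Ltc4s were nearly flat, with ranges of 0.10 and 0.12.

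The lipoxygenases outside the leukotriene route overlapped between genotypes. Alox15, in the mouse the leukocyte-type enzyme that adds oxygen to arachidonic acid, had 4.33, 4.17, 3.80 and 5.16 in Fbn1mgR/mgR, against 4.27, 4.24, 4.15 and 5.34 in wild-type arrays. A single array in each genotype, mgR614 and WT744, stood above the others, and the difference was -0.14 (SE 0.329). It was 0.05 without mgR613 and 0.14 without WT744. Alox12, the platelet-type enzyme, had 5.05, 4.63, 4.66 and 4.60 in Fbn1mgR/mgR, against 4.87, 4.63, 4.94 and 5.29 in wild-type arrays, a difference of -0.20 (SE 0.158). Of 4 platelet markers tested, 1, the platelet chemokine Pf4, rose by limma, by 1.29 (limma adjusted p = 0.0277), and 0 fell. Itga2b, Gp9 and Ppbp differed by 0.04, -0.17 and 0.13 and were not called. The summed platelet signal was 12.7 to 13.2 in Fbn1mgR/mgR and 10.9 to 12.2 in wild-type arrays. That sum was close to Pf4 alone, at 12.60 to 13.14 in Fbn1mgR/mgR and 10.84 to 11.91 in wild-type arrays. The part of platelets in the Alox12 values was not tested. Alox12 and Alox15 are related in sequence, and whether their probes share signal was not tested. The other 4 lipoxygenase genes, Alox8, Alox12b, Alox12e and Aloxe3, were at or below the dim guide in all 8 arrays and none was tested.

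**Figure D1:**
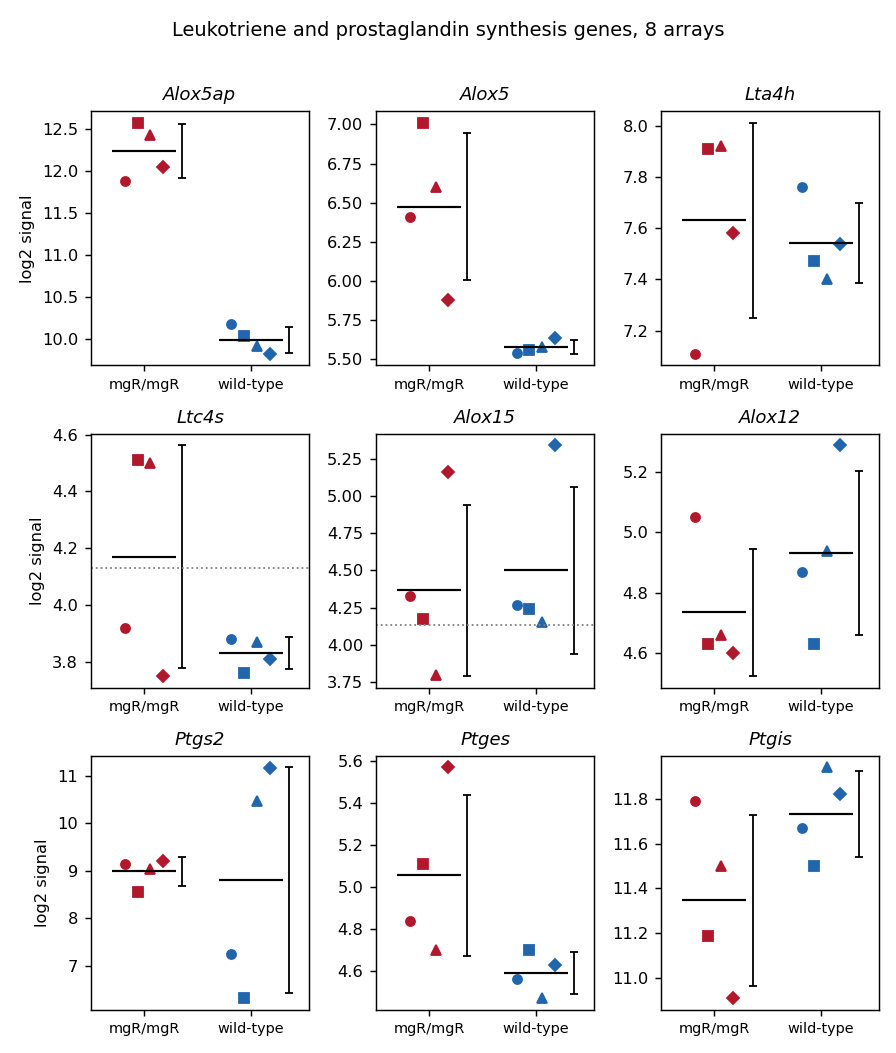
Log2 signals of the 9 measured synthesis genes in each array, Fbn1mgR/mgR (red) left of wild-type (blue), with 4 arrays each. Marker shapes follow the array order (circle mgR611 or WT675, square mgR612 or WT676, triangle mgR613 or WT742, diamond mgR614 or WT744), lines are means, bars are SD, each panel has its own scale and the dotted line is the dim guide of 4.13. Alox5ap and Alox5 do not overlap between genotypes, and the wild-type arrays of Ptgs2 lie far apart, at 6.31 to 11.17.

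In the cyclooxygenase branch, Ptgs2 set itself apart by its spread and not by genotype. Ptgs2 encodes cyclooxygenase-2, the inducible enzyme that makes prostaglandin H2 and is known as a rapidly induced response gene. Its signals were 9.15, 8.55, 9.04 and 9.20 in the Fbn1mgR/mgR arrays, against 7.24, 6.31, 10.47 and 11.17 in the wild-type arrays. The mutant arrays lay close together in the gap between the low wild-type arrays WT675 and WT676 and the high ones WT742 and WT744. The means were 8.98 ± 0.298 in Fbn1mgR/mgR and 8.80 ± 2.38 in wild-type arrays (log2, SD, n = 4 each), and the difference of 0.19 (SE 0.963) was far below its error. It was -0.33 without WT675, -0.64 without WT676, 0.74 without WT742 and 0.98 without WT744. The labels give no batch or handling time for the arrays.

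Genes with a profile like that of Ptgs2 were looked for among 13160 other tested genes by the root mean square difference between profiles over the 8 arrays, each centred on its own mean. The nearest were Adamts1, a secreted metalloprotease (0.756), Tent5a, an RNA poly(A) polymerase (0.791), and Ccn1, a matricellular protein induced early after cell stimulation (0.799), while Ptgs2 itself varied by 1.47 about its mean. Ccn1 had 14.53, 14.16, 13.66 and 12.50 in Fbn1mgR/mgR, against 13.11, 11.67, 15.98 and 17.00 in wild-type arrays. Adamts1 had 8.93, 8.22, 8.20 and 7.50 in Fbn1mgR/mgR, against 7.87, 6.87, 9.68 and 10.02 in wild-type arrays. As genes picked for the nearest profiles, all 3 were lowest among the wild-type arrays in WT676 and highest in WT744, like Ptgs2. That likeness follows from the selection and is a description only. Among the mutant arrays Ptgs2 was highest in mgR614 (9.20), where Adamts1 (7.50) and Ccn1 (12.50) were lowest. Tent5a (10.26) was neither lowest nor highest there.

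The terminal synthases among the members showed small differences. Ptges, which encodes microsomal prostaglandin E synthase-1, the inducible partner of cyclooxygenase-2, had 4.84, 5.11, 4.70 and 5.57 in Fbn1mgR/mgR, against 4.56, 4.70, 4.47 and 4.63 in wild-type arrays. The genotypes met at 4.70, in mgR613 and WT676, and 3 of 4 mutant arrays lay above the highest wild-type array. Its difference was 0.46 (SE 0.176). With each array left out in turn it was 0.29 to 0.58, and 0.29 was the value without mgR614. Ptgis, which encodes prostacyclin synthase, had 11.79, 11.19, 11.50 and 10.91 in Fbn1mgR/mgR, against 11.67, 11.50, 11.94 and 11.82 in wild-type arrays. The genotypes overlapped, with mgR614 and mgR612 lowest, and the difference was -0.39 (SE 0.198). For Ptgis the same omissions gave -0.53 to -0.24, and -0.24 was the value without mgR614. Endothelial cells and smooth muscle make prostacyclin, and none of 9 endothelial and none of 9 smooth muscle markers passed the limma threshold, with 3 of each list lower at an unadjusted p under 0.05. Their summed signals (log2 of the sum of linear signals) were 13.78 to 14.96 in Fbn1mgR/mgR and 14.51 to 15.16 in wild-type arrays for endothelium, and for smooth muscle 19.64 to 20.18 in Fbn1mgR/mgR and 20.02 to 20.28 in wild-type arrays. Acta2 was the brightest marker in the smooth muscle sum, at 19.14 to 19.49 in Fbn1mgR/mgR and 19.49 to 19.57 in wild-type arrays. The part of these cell types in the Ptgis values was not tested.

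Of the 8 members tested with limma, 1, Alox5ap, was past the threshold of an adjusted p under 0.05 as higher, against 1.54% of all 32957 tested clusters, and 0 were past it as lower, against 0.558% (2.10% in either direction). At the unadjusted level, 3 members were higher and 0 lower with p under 0.05. The share of all tested clusters at that unadjusted level was not computed, so no unadjusted count in this text has one beside it. In 2 of the 8, Alox5ap and Alox5, every mutant array lay above every wild-type array, against 5.26% of all tested clusters, and in 0 every mutant array lay below, against 3.65% (8.92% for either). The median difference of the 8 was 0.14, against -0.02 for all tested clusters. Nothing is read from these counts, since the members were chosen with this contrast in view.

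RNA was taken from whole tissue, so more cells of a type and more RNA per cell cannot be told apart in any of these values. Of 20 macrophage markers, 19 rose by limma and 0 fell (0 were lower at an unadjusted p under 0.05). Their summed signal was 15.7 to 16.7 in Fbn1mgR/mgR and 13.7 to 14.4 in wild-type arrays, and none was at or below the dim guide. Cd68, a lysosomal membrane protein of macrophages, had 9.85, 10.79, 10.22 and 10.14 in Fbn1mgR/mgR, against 7.92, 8.15, 7.48 and 7.84 in wild-type arrays. For other leukocytes that use 5-lipoxygenase, 0 of 10 neutrophil and 0 of 7 mast cell markers passed the threshold. At an unadjusted limma p under 0.05, 0 and 1 of them were higher. The differences ran from 0.13 to 1.15 (median 0.35) for neutrophil markers and from -0.30 to 0.70 (median 0.59) for mast cell markers. All 5 eosinophil markers were at or below the dim guide and were not tested. The summed neutrophil signal was 7.78 to 10.1 in Fbn1mgR/mgR and 7.70 to 9.78 in wild-type arrays, and the summed mast cell signal 9.94 to 12.01 in Fbn1mgR/mgR and 9.48 to 10.91 in wild-type arrays. The part of these cells in the values of Alox5ap and Alox5 was not tested.

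The profiles nearest to that of Alox5ap were those of H2-DMb2, which helps to load class II histocompatibility molecules (0.134), Fcgr3, an immunoglobulin G receptor (0.178), and Gatm, an enzyme of creatine synthesis (0.197), where Alox5ap itself varied by 1.14 about its mean. H2-DMb2 had 7.66, 8.81, 8.30 and 8.02 in Fbn1mgR/mgR, against 6.28, 6.03, 5.98 and 5.90 in wild-type arrays, and so followed the order of Alox5ap in all 8 arrays. Nearest to Alox5 were Samhd1, a nucleotide hydrolase (0.135), Arhgap20 (0.165) and the membrane-bound matrix protease Mmp14 (0.171), where Alox5 varied by 0.532. Nearest to Alox15 were the major urinary protein pseudogenes Mup-ps8, Mup-ps14 and Mup-ps9 (0.145 to 0.190), which were also highest in mgR614 and WT744. Nearest to Ptges were Nxpe5, Bmper and Rbm47 (0.108 to 0.125), and nearest to Ptgis were Mgat4a, Tmem47 and the small heat shock protein gene Hspb6 (0.0950 to 0.115). In each case the likeness to the member follows from picking the nearest profiles and is a description only.

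**Figure D2:**
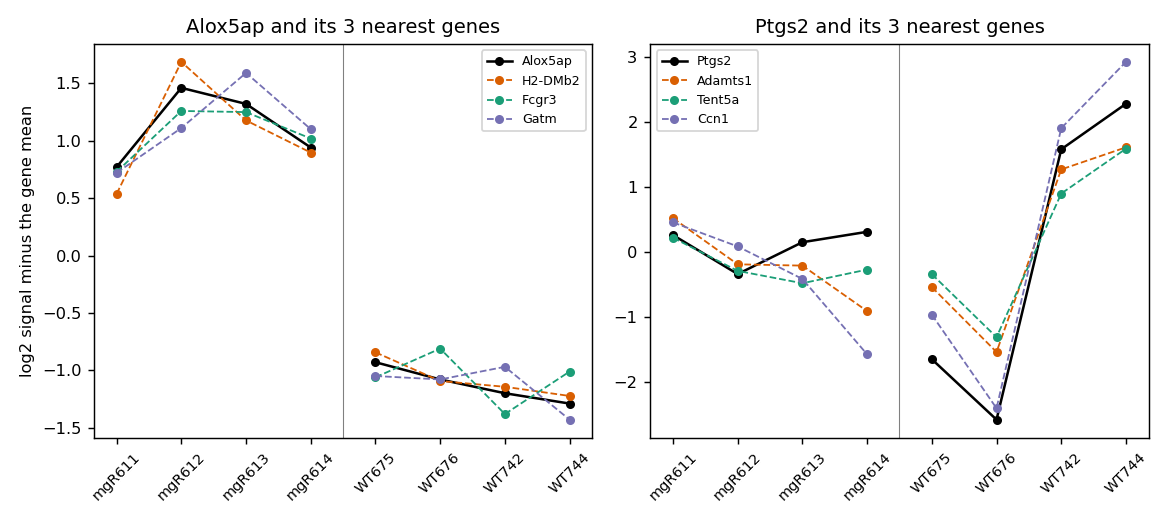
Log2 signal minus the mean of each gene over 8 arrays (vertical axis) in each array, Fbn1mgR/mgR left of wild-type, for Alox5ap and Ptgs2 (black) with their 3 nearest profiles (coloured), joined within a genotype for tracing only. The Alox5ap group splits by genotype, while the Ptgs2 group is lowest in WT676 and highest in WT744. The coloured genes were picked for their profile over the same arrays, so this likeness follows from the selection.

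Around the members, 14 genes that free arachidonic acid or act on its precursors were tested. Of these genes of arachidonate release, 1 rose and 0 fell by limma, against 1.54% and 0.558% of all tested clusters. At unadjusted p under 0.05, 2 were higher and 2 lower, and the median difference was -0.07. This list and those below are short, and their counts were not tested against such shares. The shares given apply to the adjusted calls and not to the unadjusted counts. The one that rose was Pla2g15, a lysosomal phospholipase, with 10.18, 10.42, 10.08 and 10.34 in Fbn1mgR/mgR, against 9.11, 9.63, 9.02 and 9.21 in wild-type arrays. Its difference was 1.01 (SE 0.164, limma adjusted p = 0.0155), and the call was lost without WT675 (0.0548) or WT744 (0.0556), within a range of 0.00865 to 0.0556 over all alternatives. Pla2g4a, the cytosolic phospholipase that supplies both branches, was higher in all mutant arrays, by 0.53 (limma adjusted p = 0.168), and did not pass. The lipases Abhd6 and Mgll differed by -0.61 and -0.35 (limma adjusted p = 0.253 and 0.337) without passing. Abhd6 was 7.90 in WT742 and 8.72 to 8.87 in the other wild-type arrays, and without WT742 it passed, at -0.84 (limma adjusted p = 0.0450, range 0.0450 to 0.564 over all alternatives).

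Of 11 other terminal synthases tested, 2 rose and 0 fell by limma, against 1.54% and 0.558% of all tested clusters. At unadjusted p under 0.05, 2 were higher and 0 lower, and the median difference was -0.01. Tbxas1, thromboxane A synthase, had 6.28, 7.09, 6.67 and 6.72 in Fbn1mgR/mgR, against 5.37, 5.35, 5.35 and 5.33 in wild-type arrays, where it was almost flat. Its difference was 1.34 (SE 0.161, limma adjusted p = 0.00382). Hpgds, the haematopoietic prostaglandin D synthase, had 5.42, 6.16, 5.73 and 6.04 in Fbn1mgR/mgR, against 4.98, 5.24, 4.69 and 4.61 in wild-type arrays. Its difference was 0.96 (SE 0.194, limma adjusted p = 0.0396). The Hpgds call was lost without mgR612, mgR613, mgR614, WT675, WT742 or WT744, at adjusted p from 0.0787 to 0.120, and ranged from 0.0241 to 0.120 over all alternatives. It also rests on the choice of prior: with the limma prior estimated over the tested clusters alone, the first version run, Hpgds did not pass (0.0507). Cbr1 (-0.30) and Mgst3 (-0.38) did not pass (limma adjusted p = 0.450 and 0.719).

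Among receptors, 1 leukotriene receptor was called higher, and 1 prostanoid receptor was called lower in a list with a median difference of 0.13. Of all tested clusters, 1.54% were called higher and 0.558% lower. Of 2 leukotriene and lipid mediator receptors tested, Cysltr1, the receptor of cysteinyl leukotrienes, rose, with 5.68, 6.80, 6.03 and 6.48 in Fbn1mgR/mgR, against 4.96, 4.97, 4.77 and 4.72 in wild-type arrays. Its difference was 1.39 (SE 0.221, limma adjusted p = 0.0140), and the call was lost without WT744 (0.0507; 0.00522 to 0.103 over all alternatives). The other one tested, Cmklr1, a receptor of chemerin and resolvin E1, differed by -0.15 (limma adjusted p = 0.730). Ltb4r1, the leukotriene B4 receptor of leukocytes, Cysltr2, Oxgr1 and Gpr17 were at or below the dim guide in all 8 arrays and were not tested.

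Of 7 prostanoid receptors tested, 0 rose and 1 fell by limma, against 1.54% and 0.558% of all tested clusters. At unadjusted p under 0.05, 3 were higher and 1 lower, and the median difference was 0.13. Ptgfr, the receptor of prostaglandin F2-alpha, had 4.78, 4.73, 4.80 and 4.55 in Fbn1mgR/mgR, against 6.68, 5.86, 5.94 and 6.11 in wild-type arrays. The genotypes were more than 1 log2 unit apart at their nearest, and the fall was called in every alternative in which it was tested. Its difference was -1.43 (SE 0.176, limma adjusted p = 0.00422, 0.00250 to 0.0314 over all alternatives), or 2.70-fold lower. The prostaglandin E2 receptors Ptger2 and Ptger4 and the prostacyclin receptor Ptgir had differences of 0.48, 0.65 and 0.53 and did not pass (limma adjusted p = 0.0548, 0.126 and 0.193). All mutant arrays lay above all wild-type arrays in each of them, as in 5.26% of all tested clusters. Ptger2 passed without mgR613 (0.0485) and Ptger4 without mgR611 (0.0341), within ranges of 0.0282 to 0.257 and 0.0341 to 0.384 over all alternatives.

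Of 17 tested genes of export, uptake and breakdown, 3 rose and 0 fell by limma, against 1.54% and 0.558% of all tested clusters. At unadjusted p under 0.05, 4 were higher and 2 lower, and the median difference was 0.09. Dpep2, a membrane dipeptidase that turns leukotriene D4 into leukotriene E4, had 6.04, 6.22, 6.35 and 6.61 in Fbn1mgR/mgR, against 4.84, 4.90, 4.86 and 4.77 in wild-type arrays, a difference of 1.46 (SE 0.131, limma adjusted p = 0.00109). Its relative Dpep1 differed by 0.82 (limma adjusted p = 0.0803) and did not pass, while with the brown fat marker level as a covariate it did (0.0436, range 0.0436 to 0.201 over all alternatives). Cyp4f18, which in mouse leukocytes oxidises leukotriene B4, had 4.70, 5.38, 5.01 and 4.85 in Fbn1mgR/mgR, against 3.92, 4.03, 4.09 and 4.08 in wild-type arrays, all 4 of them below the dim guide. Its difference was 0.95 (SE 0.141, limma adjusted p = 0.00973), and its size is uncertain for that reason. Cyp1b1, a cytochrome P450 that can oxidise arachidonic acid among other substrates, rose by 0.84 (SE 0.150, limma adjusted p = 0.0234). The Cyp1b1 call was lost without mgR611, mgR612, mgR614, WT676, WT742 or WT744, at adjusted p from 0.0506 to 0.0833 (0.0114 to 0.119 over all alternatives).

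**Figure D3:**
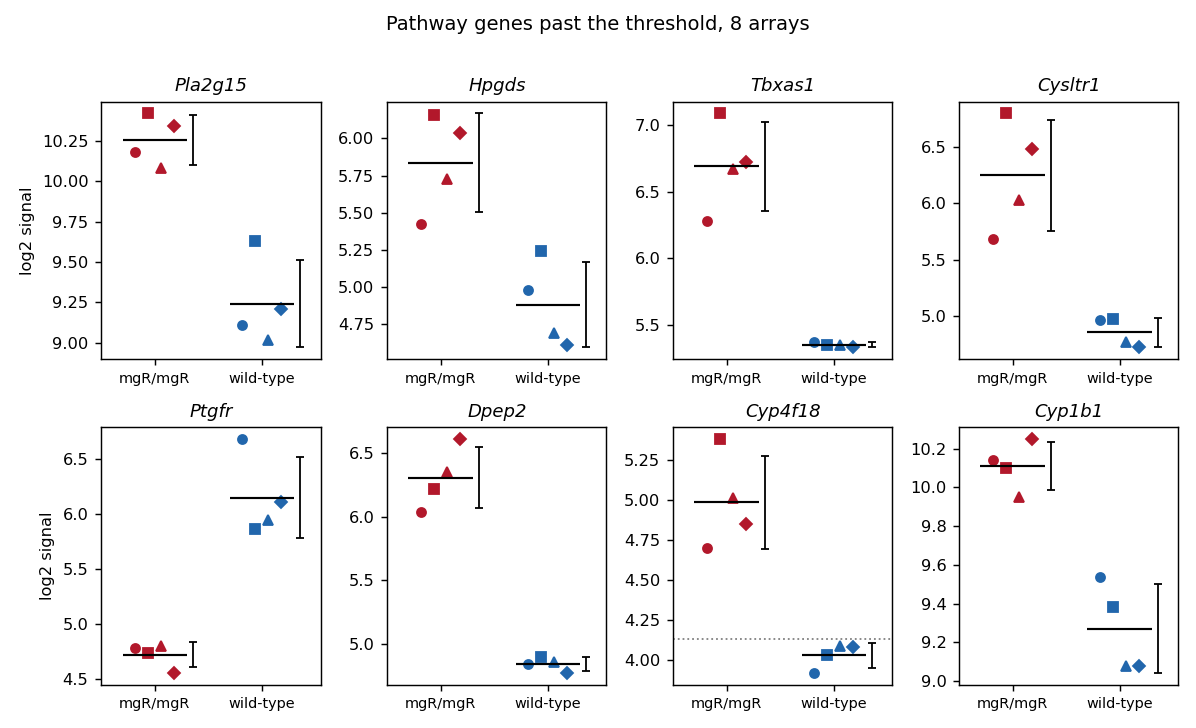
Log2 signals of the 8 pathway genes outside the synthesis set that passed the limma threshold, Fbn1mgR/mgR (red) left of wild-type (blue), 4 arrays each, with means, SD bars, marker shapes by array order and the dim guide as a dotted line. No gene overlaps between genotypes, 7 are higher in Fbn1mgR/mgR and Ptgfr alone is lower.

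**Figure D4:**
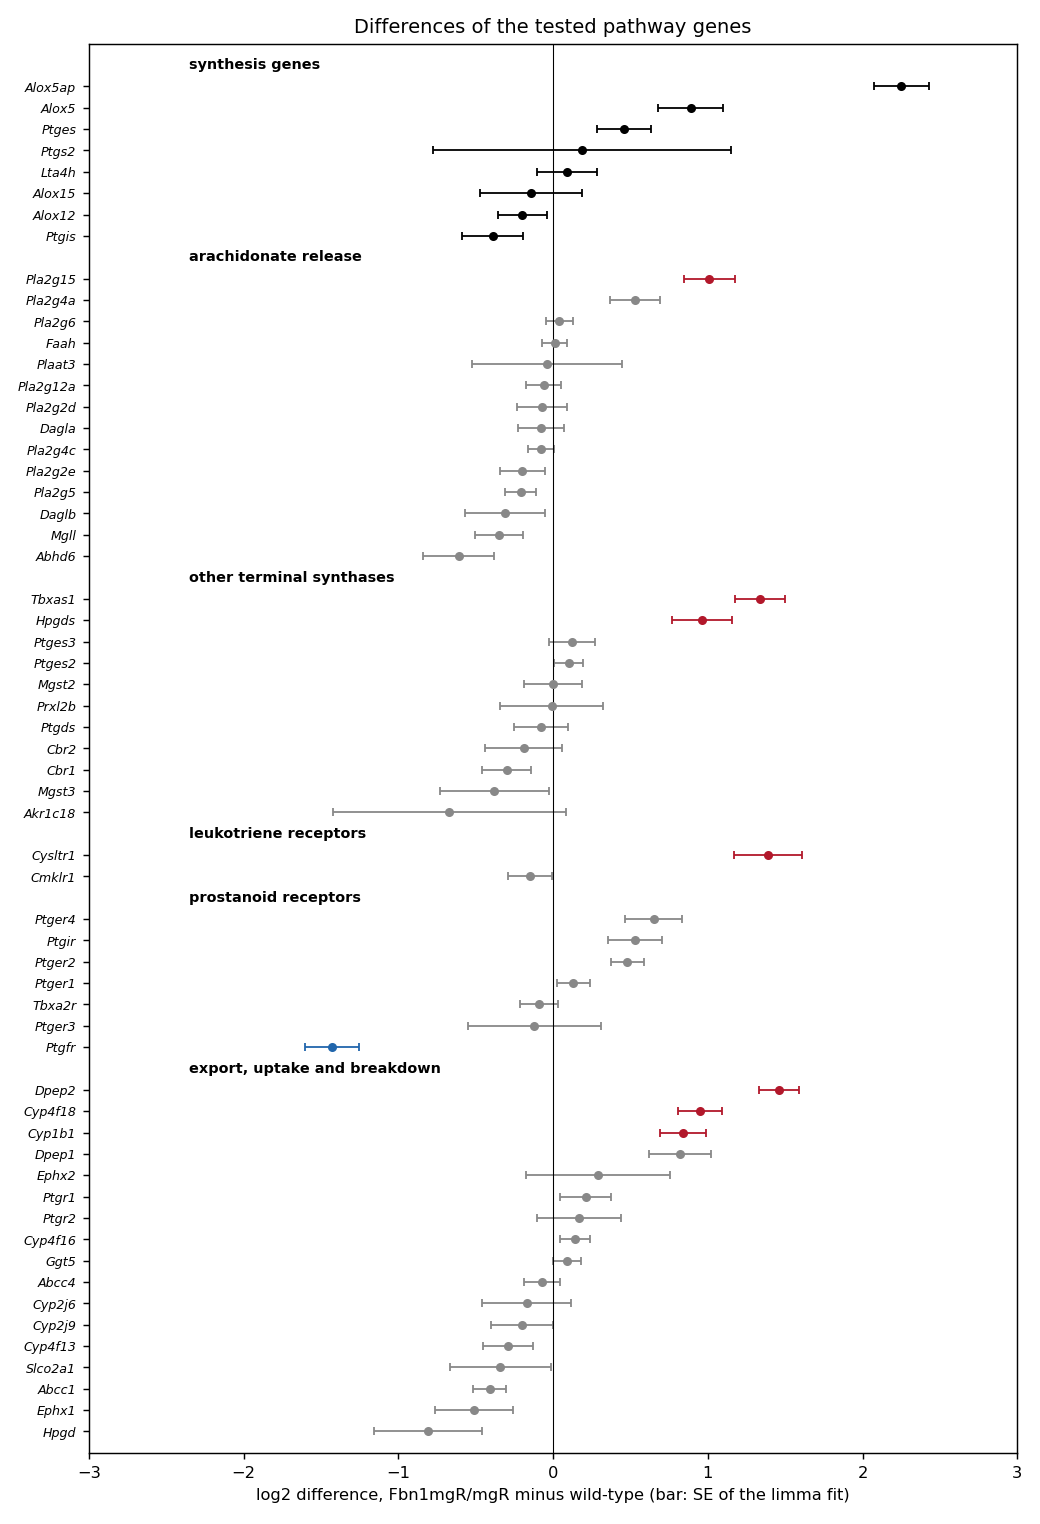
Log2 difference, Fbn1mgR/mgR minus wild-type, with the SE of the limma fit, for each tested gene of the synthesis set (black) and of the 5 other lists with tested genes, red and blue for genes past the limma threshold as higher and lower and grey for the rest. Alox5ap, at 2.25, has the largest difference shown, and Ptgs2 and Akr1c18 have the widest errors.

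Every non-member called in these lists came from the same contrast as the members and moved in arrays that also differed in macrophage markers, as given above. The part of those cells in the values of Tbxas1, Hpgds, Cysltr1, Dpep2, Cyp4f18, Pla2g15, Cyp1b1 and Ptgfr was not tested. Without the pair of arrays highest in brown fat markers, mgR614 and WT676, the members past the threshold were the same gene, Alox5ap, while Hpgds, Cysltr1, Cyp4f18 and Cyp1b1 no longer passed (limma adjusted p = 0.108, 0.103, 0.0665 and 0.119). With those arrays left out, the differences were 1.01 for Hpgds, 1.35 for Cysltr1 and 0.83 for Cyp1b1, against 0.96, 1.39 and 0.84 over all 8 arrays, and that of Cyp4f18 was not smaller than over all arrays.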

How the data were processed

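The data were log2 signals for the transcript clusters of Clariom D mouse arrays, in the processed form the authors deposited. Per the submitters' processing notes they were made in Transcriptome Analysis Console, with version and normalization not given in the sources used here. Of 65956 clusters, the platform annotation gave 1 gene symbol to 30604, several to 2146 and none to 33206. RefSeq gene IDs (GRCm38.p6) updated 827 symbols, and clusters with several symbols named no gene. The brightest row stood for a gene.

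Differences, Fbn1mgR/mgR minus wild-type, came from lmFit and a trended eBayes over all clusters (limma 3.58.1, R 4.3.3). P-values were adjusted by Benjamini-Hochberg over the 32957 clusters whose mean lay above the median of the means (4.01), and the threshold was 0.05. Every adjusted p in the text is limma's. The first version estimated the eBayes prior over the tested clusters alone and called 460 clusters higher and 153 lower. The prior over all clusters (507 and 184) was adopted after both results were seen, to match earlier work on these data, and the first version is kept as an alternative. The fit was checked on simulated data. Python 3.11.15 with pandas 2.3.3 and matplotlib 3.10.9 did the rest. Members, gene lists and tests were chosen with earlier results of these data known. Named were all members, of each other list its called genes filled up to 4 by smallest p, and the 3 nearest profiles of members spanning over 1 log2 unit, leaving out predicted or unnamed gene models.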

Additional observations from a re-analysis of the deposited data

Results flagged for a closer look

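In 3 of 54 groups of 4 arrays (members and named pathway genes, both genotypes), 1 array lay far from the other 3, which chance gives in about 1 of 20 groups. Alox15 was 5.34 in WT744 and 4.15 to 4.27 in the other wild-type arrays. Alox12 was 5.05 in mgR611 and 4.60 to 4.66 in the other Fbn1mgR/mgR arrays. Abhd6 was 7.90 in WT742 and 8.72 to 8.87 in the other wild-type arrays.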

How the results depend on the processing

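No paired analysis was possible because the genotypes share no replicate numbers. Of 206 recomputed list counts, 177 stayed within 1.5 times their value and 29 did not. A count of 0 that stayed 0 was taken as unchanged, and many of the 177 were of this kind. The 431 recomputed gene differences covered called and uncalled genes, and no called gene changed direction. The uncalled members Ptgs2 (-0.71 to 0.98), Alox15 (-0.49 to 0.14) and Lta4h (-0.01 to 0.26) changed sign in some settings. Members higher were 2 (Alox5ap and Alox5, as a description) with the upper quartile filter or with genes in place of clusters, and 1 to 2 with each array left out (2 without mgR614). Genes higher of arachidonate release were 0 to 1 with each array left out, and those lower 0 to 1. Other terminal synthases higher were 1 without a filter, with the upper quartile filter, without the 2 brown fat arrays (mgR614 and WT676, highest in those markers), and with the eBayes prior over the tested clusters alone, which was the first version run and called 460 clusters higher and 153 lower in place of 507 and 184. Those last settings, and the adopted prior, were chosen after seeing the data. The count of these synthases was 1 to 2 with each array left out. Leukotriene receptors higher were 0 with the upper quartile filter or without both brown fat arrays, and 0 to 1 with each array left out. Prostanoid receptors higher were 1, Ptger2, without a trend, after quantile normalization and with genes in place of clusters, and 0 to 1 with each array left out, while those lower were 0 with the upper quartile filter, where Ptgfr was not tested. Genes of export, uptake and breakdown higher were 4 with the brown fat covariate, 1 with the upper quartile filter and 1 without both brown fat arrays. Those lower were 1 without a trend and with genes in place of clusters, Abcc1, named after its values were seen. The upper quartile filter tests fewer genes and each left-out array leaves fewer samples. For the other changes the cause was not tested. Ltc4s was tested only without a filter, and Alox8, Alox12b, Alox12e and Aloxe3 did not pass the filter. Signals near the dim guide limit Ltc4s, Alox15, Ptger2, Ptgir and Cyp4f18.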
